A study of Mus musculus with 15 samples.

Results

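The Pdzrn3 region was taken as all peaks of chromosome 6 whose start and end lie between 100500000 and 102000000 (mm10), a window of 1.5 Mb, which gave 45 of the 67945 merged peaks of the study. The assay was ATAC-seq: a transposase cuts DNA where chromatin is open and leaves sequencing adapters there, so the read count of a peak follows how open it was. Tumour cells were sorted, 50000 per tumour, 3 weeks after pancreatic tumour cell clones were implanted under the skin of untreated C57BL/6 mice. The T cell high class had 6 clones (2838c3, 6421c2, 6499c4, 6555c3, 6620c1 and 7160c2) and the T cell low class had 7 (6694c2, 6556c3, 6499c3, 6422c1, 6419c5, 6419c1 and 2699c4). Each library was 1 clone, so a group describes those clones grown subcutaneously and not in the pancreas, and the labels do not say how many mice gave the cells of a library. The genotype of the clones beyond their host strain is not given in the sources used here. The window was chosen because its peaks differed between these classes, so that difference is described below without a test.

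Pdzrn3 encodes a ubiquitin ligase with a RING domain and PDZ domains. In mouse muscle cells it is known to bind the receptor kinase MuSK and to lower its amount at the cell surface, and in endothelial cells it is known to act on Dishevelled and on the non-canonical WNT pathway. Open chromatin at a gene's start marks where transcription begins, and open peaks inside and upstream of a gene are often regulatory elements. These data hold no histone mark and no contact between elements, so whether any peak is an enhancer, and of which gene, was not measured. Pdzrn3 spans chr6:101149607-101377897 on the minus strand of GRCm38.p6, the assembly of mm10, so its start is at the higher coordinate and its upstream side runs towards 102000000. On the other side lie Ppp4r2, a regulatory subunit gene of protein phosphatase 4, Gxylt2, a xylosyltransferase gene, and Shq1, whose product helps to assemble H/ACA ribonucleoproteins.

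The window's peaks are numbered 1 to 45 in the order of their coordinates. Peaks 1 to 26 lay on the other side of Pdzrn3, peaks 27 to 36 inside it, peak 37 at its promoter and peaks 38 to 45 upstream. They were 281 to 1448 bp long and covered 34.7 kb. The first of the peaks inside Pdzrn3 lay 99.3 kb from the gene's far end, and no peak lay between it and that end. Whether they lie in exons or introns was not analysed here.

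The sequences of 3 transcription starts are shown because each lies whole within a peak inside Pdzrn3, at its promoter or upstream. They are the promoter of Pdzrn3 in peak 37 and those of the long non-coding RNA genes Gm33934 in peak 31 and Gm34335 in peak 43. The starts of Shq1, Ppp4r2 and Gm33741 also lie within window peaks, on the other side, and are not shown. Peak 31 (chr6:101271526-101272520) is the peak of the window with the smallest p in the comparison of all peaks and is called the lead peak. Gm33934 (chr6:101271936-101291506, plus strand) starts 410 bp into it, within Pdzrn3 and on the opposite strand. Each sequence runs 5′ to 3′ on its gene's strand from 250 bases before to 50 bases after the start, taken from RefSeq on GRCm38.p6. Capitals mark matches of the motifs searched, on both strands and with no overlap between matches. The motif of AP-1 was searched as TGANTCA, that of the TEAD factors as GGAATG and that of GATA factors as AGATAA. The E-box was searched as CAGCTG, the motif of SP and KLF factors as GGGCGG and that of ETS factors as ACCGGAAGT.
Pdzrn3, chr6:101377848-101378147, minus strand: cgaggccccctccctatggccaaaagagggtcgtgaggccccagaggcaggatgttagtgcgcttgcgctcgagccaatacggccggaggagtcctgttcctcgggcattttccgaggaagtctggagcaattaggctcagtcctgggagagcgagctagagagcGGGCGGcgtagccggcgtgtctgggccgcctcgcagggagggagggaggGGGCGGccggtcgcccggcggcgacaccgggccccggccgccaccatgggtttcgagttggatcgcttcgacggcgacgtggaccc
Gm33934, chr6:101271686-101271985, plus strand: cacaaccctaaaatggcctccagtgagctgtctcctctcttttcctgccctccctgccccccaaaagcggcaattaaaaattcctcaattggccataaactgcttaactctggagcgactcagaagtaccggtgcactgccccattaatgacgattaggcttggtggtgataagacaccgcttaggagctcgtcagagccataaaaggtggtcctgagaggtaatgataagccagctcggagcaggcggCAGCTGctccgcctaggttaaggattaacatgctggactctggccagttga
Gm34335, chr6:101519264-101519563, plus strand: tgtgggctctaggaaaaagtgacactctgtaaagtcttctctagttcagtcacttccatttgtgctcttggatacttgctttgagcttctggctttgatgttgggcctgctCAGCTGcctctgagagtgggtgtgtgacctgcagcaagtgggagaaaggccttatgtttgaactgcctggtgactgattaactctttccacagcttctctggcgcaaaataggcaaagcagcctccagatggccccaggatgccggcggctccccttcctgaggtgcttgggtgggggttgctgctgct
The Pdzrn3 start had 68.7% G and C and 32 CpG, with an observed over expected CpG ratio of 0.92, which 10.9% of the 32851 promoters in the table exceeded. It held 2 matches of GGGCGG, present in 35.7% of all promoters. The Gm33934 start inside the lead peak had 52.0% G and C and 9 CpG (ratio 0.45), against a median of 52.7% and a ratio of 0.38 over all promoters. The Gm34335 start had 53.0% G and C and 3 CpG (ratio 0.14). Both lncRNA starts held 1 match of CAGCTG, present in 16.3% of all promoters. The exact strings searched for AP-1, TEAD, GATA and ETS, found in 7.81%, 14.7%, 11.2% and 1.1% of all promoters, were in none of these 3 sequences. Other forms of these motifs were not searched, so their absence is not shown. A match is a description of the letters only.

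The depth of a library, as its reads summed over all peaks, was 968296 to 7369228, with 7160c2 lowest in the T cell high class and 6556c3 lowest in the T cell low class. Of the 45 peaks, 36 had enough counts to enter the comparison, among 59252 tested peaks in all. The other 9, with 90 to 154 reads over all libraries, did not, and a peak that passed only because 1 class was open had to differ, so counts over all 45 are also given. Over all tested peaks, edgeR's quasi-likelihood F-test called 0 (0%) at an adjusted p under 0.05, 4046 (6.83%) had an unadjusted p under 0.05, and DESeq2 called 47 of 59227 (0.0794%). The region's differences therefore have no adjusted call by the main test. In the T cell high class, the clone 2838c3 was lowest in the sums inside and upstream of Pdzrn3 and at the promoter. It was singled out after the values were seen. The search for single far values, described below, did not flag it. For peaks and sums that search used CPM, where a low clone under a wide range is hard to flag. The lack of a flag therefore does not show that 2838c3 was like the other clones. Sums and correlations are given with and without 2838c3.

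At the lead peak the T cell high clones had 1.853, 26.49 and 66.22 CPM (lowest, median and highest), and the T cell low clones had 2.472, 5.436 and 9.347 CPM. The T cell high clones 6421c2, 6499c4, 6555c3, 6620c1 and 7160c2, at 19.56, 21.06, 66.22, 52.25 and 31.91 CPM, were all above the highest T cell low clone, 6419c5, and 2838c3, with 7 reads, was below every T cell low clone. The log2 fold change of T cell high over T cell low was 2.64 (SE 0.51).

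Peak 27 (chr6:101248914-101249449), the peak inside Pdzrn3 nearest the gene's far end, had 2.647, 5.941 and 19.78 CPM in T cell high clones and 0.6795, 1.100 and 3.709 CPM in T cell low clones (log2 fold change 2.58, SE 0.55). The lowest T cell high clone was again 2838c3, and it was below the highest T cell low clone, 6694c2. Peaks 34 and 35 lie side by side about midway between the lead peak and the promoter and had nearly the same fold change. Peak 34 (chr6:101328566-101329074) had 4.764, 15.09 and 26.34 CPM in T cell high clones and 0.6795, 2.011 and 5.221 CPM in T cell low clones (2.46, SE 0.48). Peak 35 (chr6:101330374-101330853) had 1.853, 14.20 and 41.46 CPM in T cell high clones and 0, 3.849 and 6.265 CPM in T cell low clones (2.47, SE 0.58). At both, 6620c1 was the highest clone, whereas 6555c3 was the highest at peaks 27 and 31.

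**Figure D1:**
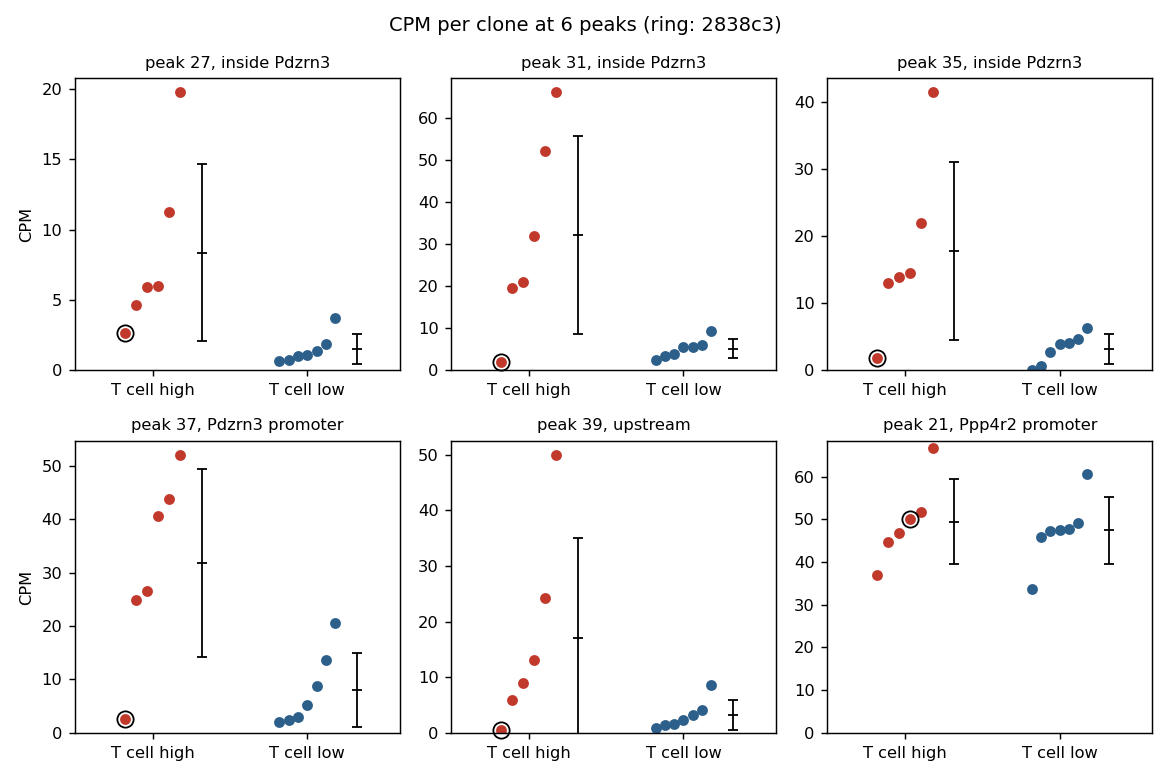
CPM at 6 peaks (vertical axes, from 0), with 1 point per clone in order of value, T cell high in red on the left and T cell low in blue on the right; bars are the mean and SD beside each group, cut at 0, and the ring marks 2838c3. At the 4 Pdzrn3 peaks and the upstream peak the ringed clone is not above the highest T cell low clone, and at peak 21, the Ppp4r2 promoter, the ranges of the groups overlap.

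The promoter of Pdzrn3, peak 37 (chr6:101376953-101378174), lay 104.4 kb from the lead peak. It had 2.647, 33.56 and 52.03 CPM in T cell high clones and 2.011, 5.221 and 20.53 CPM in T cell low clones, with means of 31.75 ± 17.63 (SD, n = 6) and 7.949 ± 6.929 CPM (SD, n = 7). The lowest of the other T cell high clones, 7160c2 at 24.93 CPM, was above the highest T cell low clone, 6556c3, while 2838c3 had 10 reads and lay near the bottom of the T cell low range. The log2 fold change was 2.15 (SE 0.54). Among T cell low clones, 6556c3 and 6694c2, at 20.53 and 13.60 CPM, were the highest at the promoter, but at the lead peak they had 5.599 and 2.472 CPM.

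Upstream, the first peak came 45.5 kb from the promoter peak. Peak 39 (chr6:101427185-101427726) had 0.5293, 11.05 and 49.88 CPM in T cell high clones and 0.9332, 2.378 and 8.654 CPM in T cell low clones (log2 fold change 2.46, SE 0.65). The classes overlapped there also without 2838c3, since 7160c2 at 5.984 CPM lay below 6694c2. Peak 41 (chr6:101464699-101465483) had 1.588, 17.09 and 32.25 CPM in T cell high clones and 1.676, 4.945 and 10.27 CPM in T cell low clones (2.06, SE 0.52). Peak 44 (chr6:101531181-101532204), inside Gm34335 and 153.8 kb upstream, had 1.059, 19.16 and 55.90 CPM in T cell high clones and 1.005, 3.849 and 7.466 CPM in T cell low clones (2.52, SE 0.56). At peaks 41 and 44 every T cell high clone but 2838c3 was above all T cell low clones. Between them, the log2 fold change was 0.70 (SE 0.66) at peak 42 and 0.60 (SE 0.45) at peak 43, which holds the Gm34335 start.

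Of the 36 tested peaks in the window, 13 had a log2 fold change of at least 1, against 3.2% of all tested peaks, and 8 had one of at least 2, against 0.157%. None was at or below -1, against 2.12%. The window was chosen on this contrast, and nothing is read from these shares. The median log2 fold change was 0.53 over the tested window peaks and 0.01 over all tested peaks. By place, all 5 tested peaks inside Pdzrn3 (median 2.47), the promoter and 5 of 7 tested upstream peaks (median 1.82, 0.60 to 2.52) were at least 1, but only 2 of 23 on the other side were (median 0.19, -0.94 to 1.53). The number of window peaks with all 6 T cell high above all 7 T cell low clones was 0, against 0.0675% of all tested peaks. With at least 5 of 6 above, a count chosen after the values were seen, it was 8, against 0.797%, of which 5 lay inside Pdzrn3, 1 at its promoter and 2 upstream.

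Counted over all members, tested or not, the mean CPM was higher in T cell high at 19 of 19 peaks inside Pdzrn3, at its promoter and upstream, with a median ratio of means of 3.88 (1.5 to 6.23). On the other side it was higher at 17 of 26, with a median ratio of 1.14. As a background by log2 fold change, 30416 of all 59252 tested peaks were above 0. Fitted with no filter on low counts, 17 of the 19 and 19 of all 45 had a log2 fold change of at least 1, against 4.41% of all 67945 peaks. The peaks below the filter included peak 28, with T cell high clones at 1.323, 5.312 and 30.1 CPM and T cell low clones at 0.6795, 1.341 and 3.299 CPM. At peak 30 the T cell high clones had 1.059, 5.178 and 12.95 CPM and the T cell low clones 0, 1.341 and 2.199 CPM.

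**Figure D2:**
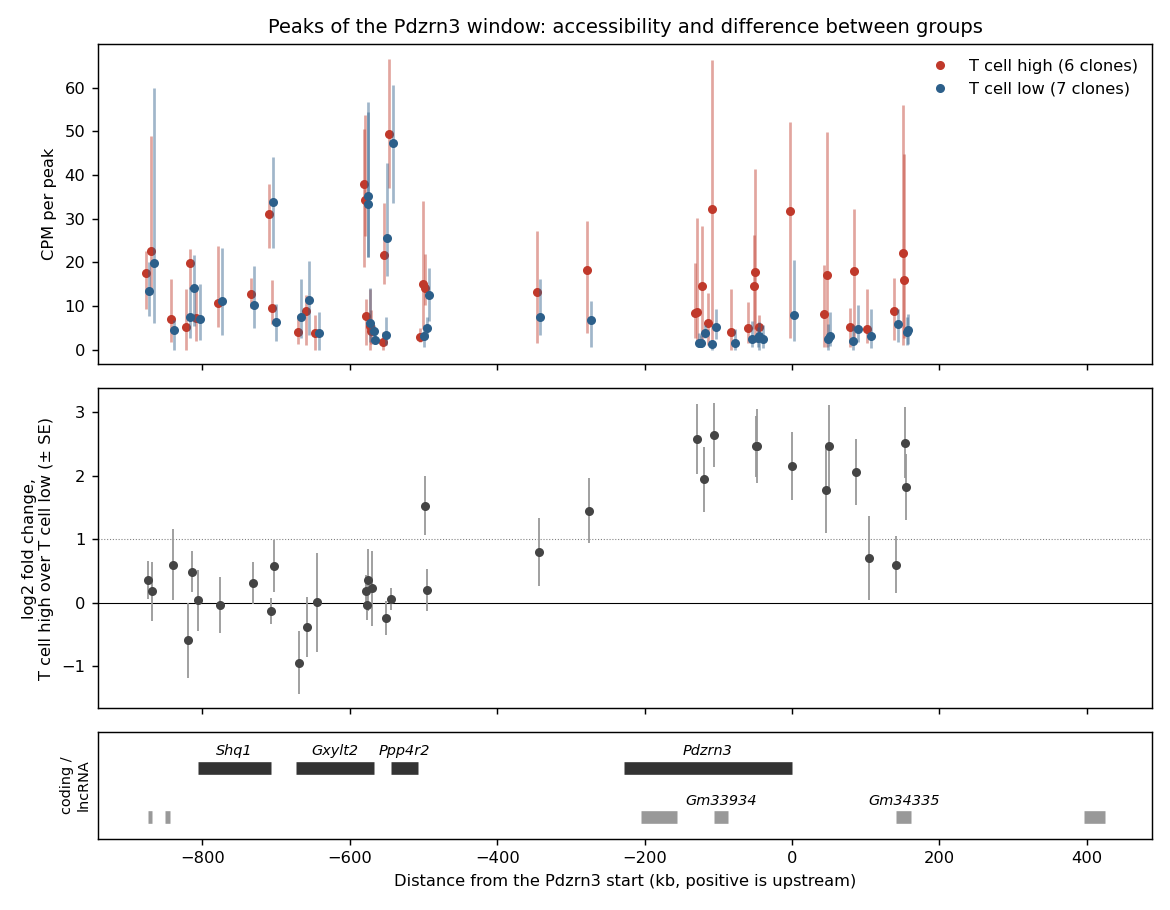
Top, mean CPM (points) and range over clones (lines) at each window peak for T cell high (red) and T cell low (blue); middle, log2 fold change of T cell high over T cell low with its SE at the 36 tested peaks; bottom, coding and lncRNA genes. The horizontal axis is the distance from the Pdzrn3 start in kb. Fold changes lie between 0.60 and 2.64 at peaks inside Pdzrn3, at its promoter and upstream, and scatter around 0 at Shq1, Gxylt2 and Ppp4r2.

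At the gene ends on the other side of Pdzrn3 the ranges of the 2 classes overlapped. The Ppp4r2 promoter, peak 21 (chr6:100833274-100834674), had the highest mean CPM of the window, with no correction for peak length. Its T cell high clones had 36.90, 48.40 and 66.65 CPM and its T cell low clones 33.60, 47.60 and 60.56 CPM. The log2 fold change was 0.06 (SE 0.18), and -0.20 once each clone was corrected for the level of the flanking chromosome. The Shq1 promoter, peak 9 (chr6:100670334-100671625), had 23.22, 31.04 and 37.84 CPM in T cell high clones and 23.33, 31.26 and 44.20 CPM in T cell low clones (-0.13, SE 0.21). The peak at the end of the Gxylt2 record, peak 18 (chr6:100809346-100810027), was below the filter, with means of 4.326 ± 2.810 CPM in T cell high (SD, n = 6) and 2.275 ± 1.056 CPM in T cell low clones (SD, n = 7). The RefSeq promoter of Gxylt2 lay in no peak. The lowest fold change among the tested peaks of the window was also in Gxylt2, at peak 11 (-0.94, SE 0.49).

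Exceptions on the other side were peaks 23 and 26, which lie in no coding gene. Peak 23 (chr6:100879389-100880015), just beyond Ppp4r2, had 4.764, 10.96 and 33.97 CPM in T cell high clones and 2.800, 4.997 and 7.417 CPM in T cell low clones (log2 fold change 1.53, SE 0.46). Only 6555c3, 6620c1 and 7160c2 were above all T cell low clones there. Peak 26 (chr6:101101879-101102802), past the far end of Pdzrn3, had 3.705, 21.25 and 29.49 CPM in T cell high clones and 0.6703, 5.710 and 11.20 CPM in T cell low clones (1.45, SE 0.51). Both 6499c4 and 2838c3 were within the T cell low range at that peak. Peak 25, between the pair, had a log2 fold change of 0.80 (SE 0.54).

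How far the difference reached depends on the criterion. Counting tested peaks in a row around the lead peak with a log2 fold change of at least 1 gave 10 peaks over 363.6 kb, chr6:101101879-101465483, which passed the start of Pdzrn3 by 87.6 kb and its far end by 47.7 kb. A fold change above 0 in a row gave 18 peaks over 699.7 kb, from the Ppp4r2 promoter to the last peak of the window. Of all 59252 tested peaks, 30416 were above 0. A Pearson r of at least 0.5 with the lead peak gave 11 peaks over 431.9 kb, past the far end by 116.1 kb and with the same upstream limit. The stretch ended upstream at peak 42, 17.1 kb on, but peaks 44 and 45 beyond it had 2.52 and 1.82 (SE 0.52). At the edges of the window, the first peak inside, peak 1, had 0.36 (SE 0.30) and the last peak outside before it 0.81 (SE 0.34). After peak 45 no peak followed for 578.9 kb, and the next pair, 1 of them more than 1 Mb further on, were below the filter, so the upstream extent ends in a stretch without peaks. The next tested peaks, at 104028366 and 104038851, had 0.38 (SE 0.58) and 1.14 (SE 0.61).

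Summed over the 19 peaks from inside Pdzrn3 to the last upstream peak, the T cell high clones had 32.02 (2838c3), 186.6 (6499c4), 192.5 (6421c2), 235.4 (7160c2), 364.9 (6620c1) and 476.0 CPM (6555c3). The T cell low clones had 36.20 (6499c3), 40.43 (6422c1), 45.83 (6419c1), 60.56 (2699c4), 67.08 (6419c5), 79.12 (6694c2) and 112.0 CPM (6556c3). The means were 247.9 ± 154.5 CPM in T cell high (SD, n = 6) and 63.03 ± 26.48 CPM in T cell low (SD, n = 7), a ratio of 3.933. The lowest sum of all 13 clones belonged to the T cell high clone 2838c3. Without it the T cell high mean was 291.1 ± 125.9 CPM (SD, n = 5). The classes then did not overlap, but 2838c3 was left out after the values were seen. It was the only T cell high clone below the highest T cell low clone, so nothing is read from that separation. At 19 of these 19 peaks 2838c3 was not above the highest T cell low clone, at 14 it was below the T cell low median and at 4 it was below every T cell low clone.

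The sums by place gave the same order of classes. Inside Pdzrn3 they were 116.2 ± 75.76 CPM in T cell high and 25.59 ± 7.079 CPM in T cell low. Upstream they were 99.93 ± 67.45 CPM in T cell high and 29.49 ± 13.94 CPM in T cell low. On the other side they were 385.4 ± 59.12 CPM in T cell high and 342.4 ± 74.80 CPM in T cell low (SD, n = 6 and n = 7 in each), and 2838c3, at 406.0 CPM, was the third highest clone. The highest clone was 6555c3 at 10 of the 19 peaks, 6620c1 at 7 and 7160c2 at 2. In bulk cells, fewer cells with a site open and a smaller opening in each cell cannot be told apart.

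**Figure D3:**
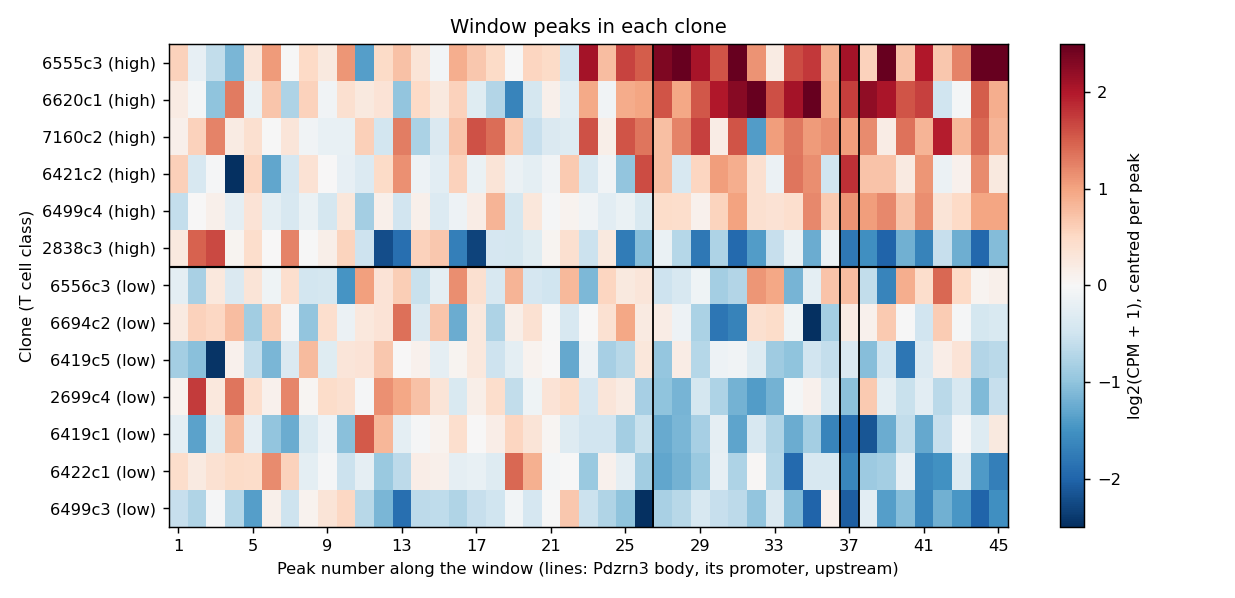
Log2 of CPM plus 1 at each of the 45 peaks (columns, in order of coordinates) in each clone (rows), centred on each peak's mean over clones; red is above and blue below that mean. T cell high clones are above the horizontal line, each class sorted by its sum over the 19 peaks right of the first vertical line; 2838c3 has the lowest sum of all 13 clones over those peaks.

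2 pairs of clones share the number in their names, which the labels do not explain. In the pair 6499c4 and 6499c3, one T cell high and the other T cell low, the lead peak had 127 and 18 reads, or 21.06 CPM in 6499c4 and 6.033 CPM in 6499c3, a ratio of 3.49 (95% interval 2.12 to 6.08). At the promoter there were 160 reads in 6499c4 and 6 in 6499c3, a ratio of CPM of 13.2 (5.93 to 36.5). The ratio was 3.27 (2.53 to 4.28) for the sum inside Pdzrn3, 7.51 (5.31 to 11) upstream and 1.25 (1.15 to 1.36) on the other side. In the pair 6419c1 and 6419c5, both T cell low, the ratios of 6419c1 over 6419c5 were 0.367 (0.189 to 0.727) at the lead peak, 0.276 (0.131 to 0.583) at the promoter, 0.578 (0.415 to 0.815) inside, 0.911 (0.668 to 1.26) upstream and 1.05 (0.96 to 1.16) on the other side. For this pair of 1 class and number, the intervals at the lead peak, at the promoter and inside Pdzrn3 also left out a ratio of 1. These exact binomial intervals cover counting error only. They treat reads as independent molecules, which reads are not, so they can be too narrow.

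Over all 13 clones, the peaks of the Pdzrn3 stretch tended to be high and low together, less so within a class. Over the 13 tested peaks inside Pdzrn3, at its promoter and upstream, the 78 pairs had a median Pearson r of log2 CPM of 0.77 over 13 clones (0.22 to 0.97), and 88.5% had an r of at least 0.5. Among the 23 tested peaks on the other side, 253 pairs had a median of 0.10, and 299 pairs across both sets had 0.21. Over the genome, 726336 pairs of tested peaks no farther apart than the stretch is long had a median of 0.17, with 16% at 0.5 or more. Peaks share libraries, depth and chromosome copies, and the window was chosen for a shared difference, so these are descriptions.

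With each class mean removed, the median within the stretch was 0.66, against 0.16 for genome pairs. Within T cell high clones alone it was 0.85 (n = 6), and 0.51 without 2838c3 (n = 5), against 0.1 and 0.15 on the other side. In the same 5 clones the median was 0.72 among peaks inside Pdzrn3 and at the promoter, and 0.23 among upstream peaks. Within T cell low clones, whose counts were low, the median of the stretch was 0.26, against 0.21 on the other side (n = 7). Without 2838c3 it was 0.76 over the 12 other clones. The lead peak had an r of 0.76 to 0.93 with the other peaks inside Pdzrn3, highest with peak 29 (chr6:101257335-101258449, log2 fold change 1.94, SE 0.51). With the promoter its r was 0.80 (0.66 with class means removed), and with upstream peaks it was 0.36 to 0.87, lowest with peak 42. On the other side the median was 0.14, but peaks 23, 26 and 25 had 0.78, 0.66 and 0.58.

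**Figure D4:**
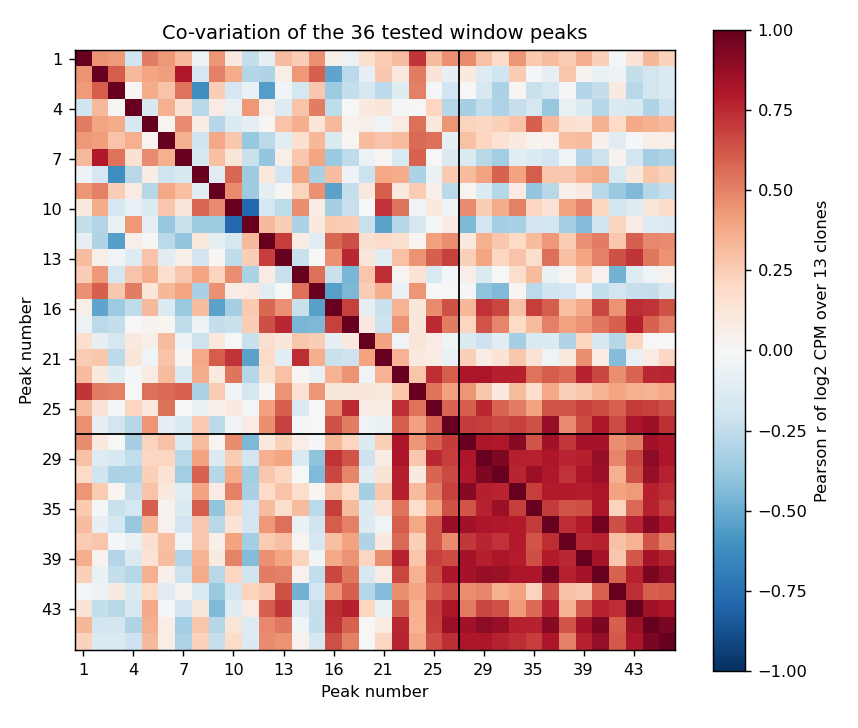
Pearson r of log2 CPM over 13 clones for each pair of the 36 tested peaks, both axes in order of coordinates; black lines part the other side from the peaks inside Pdzrn3, at its promoter and upstream. The block at the lower right has a median r of 0.77 and the block at the upper left one of 0.10.

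Copy number and other regional effects move whole stretches of a chromosome, so the tested peaks within 5 Mb on either side of the window, 164 before and 38 after it, were set beside the region. Their median level, as log2 CPM centred on each peak's mean, was 0.186 ± 0.250 in T cell high (SD, n = 6) and -0.085 ± 0.139 in T cell low clones (SD, n = 7), a difference of 0.271 (two-sided exact permutation test over 1716 arrangements, p = 0.034). The flanking level was highest in 7160c2 (0.473) and 6555c3 (0.417) and lowest in 6419c1 (-0.338). By the same exact test the difference was 0.270 without 2838c3 (p = 0.052), 0.223 without 6555c3 (p = 0.058), 0.208 without 7160c2 (p = 0.059) and 0.224 without 6419c1 (p = 0.052), so its sign stayed while p passed 0.05. Flank peaks had a median log2 fold change of 0.33, and 15 of 202 (7.43%) were at least 1. Corrected for the flanking level, the lead peak kept a log2 fold change of 2.30, the window a median of 0.27 and 13 peaks of at least 1. The flanking level and the centred level of the lead peak had the same sign in most clones. They were 0.417 and 2.67 in 6555c3, 0.473 and 1.63 in 7160c2, and -0.338 and -1.36 in 6419c1. The signs were opposite in 2838c3 (0.175 and -2.06), 6421c2 (-0.207 and 0.95), 2699c4 (0.06 and -1.22) and 6694c2 (0.082 and -1.74). Copy number itself was not measured, and its part in the difference was not tested.

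**Figure D5:**
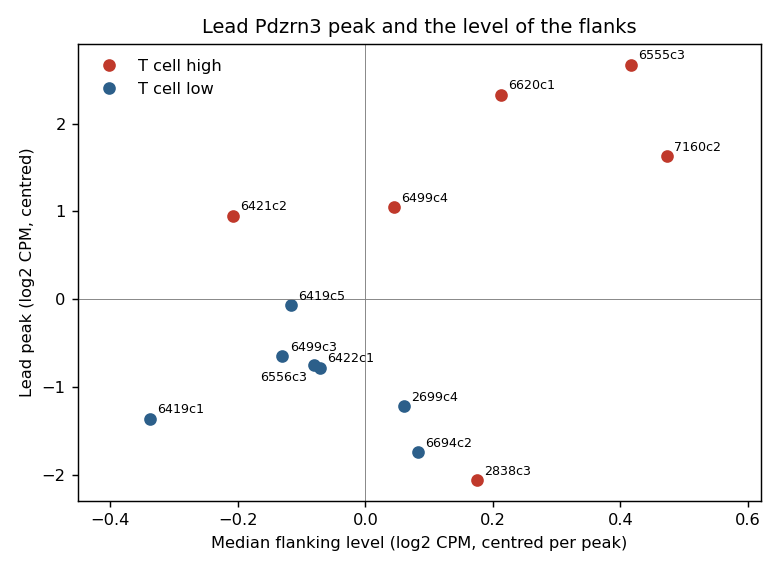
Median level of the flanking peaks (horizontal) and level of the lead peak (vertical) per clone, both as log2 CPM centred over clones, T cell high in red and T cell low in blue. The flanks range from -0.338 to 0.473 and the lead peak from -2.06 (2838c3) to 2.67 (6555c3).

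Outside the region, peaks on other chromosomes or more than 5 Mb away were ranked by their likeness to the lead peak over the 13 clones. Among 59014 such peaks, 22 had an r of at least 0.9 and 310 of at least 0.8, and among the other peaks of the window 1 and 7 did. The closest was inside Sema5a, an axon guidance semaphorin gene (chr15:32531586-32532640, r = 0.939), with 18.1 ± 10.8 CPM in T cell high (SD, n = 6) and 3.87 ± 2.22 CPM in T cell low clones (SD, n = 7). Others among the 10 highest were peaks inside Npy1r, a neuropeptide Y receptor gene (0.936), and Fam189a1 (0.927), and a peak on chromosome 15 with no gene within 50 kb (0.920). Further ones lay near Ppp1r14bl (0.918), inside Tmc5 and Tctn2 (0.917 each), near Btc, which encodes the EGF receptor ligand betacellulin (0.916), and inside Lepr, the leptin receptor gene (0.916). The log2 fold changes of those named ran from 0.91 to 2.23. They were ranked out of all peaks by this measure, and the ranks are a description.

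Other genes of the pathways in which Pdzrn3 is known to act were read at their gene-end peaks, meaning the peak within 1 kb of an end of the gene. Since edgeR's test called 0% of all 59252 tested peaks, a count of 0 called genes is not a result about a list, and values are given as a description. Of the related ligases, Lnx2 had 105 ± 13 CPM in T cell high and 97.3 ± 21.4 CPM in T cell low clones (SD, n = 6 and 7; log2 fold change 0.10, SE 0.17, edgeR adjusted p = 0.942), while Pdzrn4 and Lnx1 had no gene-end peak. In the MuSK and agrin receptor complex the median log2 fold change of 5 tested genes was -0.09, against 0.01 over all tested peaks, and Musk itself and Rapsn had no gene-end peak. The smallest p there was that of Chrnb1, an acetylcholine receptor subunit gene (0.25, SE 0.23, edgeR adjusted p = 0.880). In Dishevelled and non-canonical WNT signalling 6 of 20 tested genes were above 0, against 30416 of 59252 tested peaks, and the median was -0.16. There 3 of the 20 had an unadjusted p under 0.05, against 6.83% of all tested peaks, and they were Fzd3, Ror2 and Rac1. Fzd3, a WNT receptor gene, had 15.4 ± 13.7 CPM in T cell high and 3.01 ± 1.44 CPM in T cell low clones (SD, n = 6 and 7; 2.29, SE 0.67, edgeR adjusted p = 0.582). Ror2, a WNT5A receptor gene, had -1.41 (SE 0.65, edgeR adjusted p = 0.723), and Rac1, a small GTPase gene, had -0.44 (SE 0.21, edgeR adjusted p = 0.730). Dvl3, a Dishevelled gene named here because its product is a known substrate and not by the naming rule, had -0.36 (SE 0.20, edgeR adjusted p = 0.770). The 6 tested tight junction polarity genes had a median of -0.05, the smallest p being that of Pals1 (-0.46, SE 0.23, edgeR adjusted p = 0.740).

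Of the neighbouring genes outside the window, 3 had a gene-end peak, all of them before the window. Foxp1, a forkhead factor gene, had a log2 fold change of 0.10 (SE 0.19, edgeR adjusted p = 0.950), and Mitf and Rybp had -0.06 and 0.03. The other 7, with Cntn3 and the rest of those after the window among them, had no gene-end peak. Markers of other cells were summed per clone at their gene-end peaks. Leukocyte markers (6 of 8 with a peak) summed to 45.9 to 95 CPM in T cell high and 64.3 to 104 CPM in T cell low clones. T and NK cell markers (2 of 10 with a peak, with Cd3d, Cd3e, Cd3g and Cd8a among those without) summed to 20.5 to 46.4 CPM in T cell high and 23.5 to 51.5 CPM in T cell low clones. Macrophage markers (2 of 8) gave 14.9 to 37.6 CPM in T cell high and 9.33 to 35.1 CPM in T cell low, and fibroblast markers (3 of 12) gave 23.3 to 53.9 CPM in T cell high and 26.1 to 47.3 CPM in T cell low. Skin and muscle markers (4 of 12) gave 43.9 to 71.7 CPM in T cell high and 42.7 to 79.8 CPM in T cell low clones.

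Endothelial markers gave 25.7 to 88.2 CPM in T cell high and 8.04 to 50.3 CPM in T cell low clones. Of these 12 genes Flt1 and Sox17 had a gene-end peak, while Pecam1, Cdh5, Kdr, Tie1 and 6 more had none. Sox17 had a log2 fold change of 1.28 (SE 0.78, edgeR adjusted p = 0.796) and Flt1 one of 0.20 (SE 0.43, edgeR adjusted p = 0.959). Ductal epithelial markers (11 of 12) gave 186 to 375 CPM in T cell high and 213 to 325 CPM in T cell low clones, so peaks at epithelial genes held reads in every library. Epcam, an epithelial adhesion gene, had the smallest p of that list (1.34, SE 0.39, edgeR adjusted p = 0.581) and an r of 0.71 with the lead peak. The part of other cells in the Pdzrn3 difference was not tested.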

How the data were processed

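Read counts of 13 ATAC-seq libraries in merged peaks were analysed, 6 from T cell high and 7 from T cell low clones. The labels list 15 samples, of which the 2 T cell intermediate ones are not analysed here. The deposited values are whole-number counts per peak, made with featureCounts 1.5.3 per the file headers, from alignments named as free of duplicates, and counted without settings for pairs or strand. Per the submitters' processing notes, coordinates are those of mm10, and DESeq2 is among the tools listed. The aligner, the peak caller and whether reads were shifted for the transposase were not given in the sources used here. Both ends of a fragment can be counted, and peaks came from merged samples. No column of per-sample values was left unassigned (0). Replicate numbers are in accession order and do not pair samples. Each library is a different clone, so p-values measure the spread between clones.

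The window, its members and the gene lists (12 lists, 128 entries) were chosen with earlier results of these data known. Counts were fitted in R 4.3.3 with edgeR 4.0.16 (filterByExpr by group, TMM, quasi-likelihood F-test, two-sided, Benjamini-Hochberg at 0.05) over all tested peaks. CPM is per TMM-scaled library, and log2 CPM for correlations used a prior count of 2. Fold changes put T cell high on top. DESeq2 1.42.0, other scalings and filters, each clone left out in turn, clones of 1 name number and class summed, and an offset from the flanking peaks were tried as alternatives. The fit was tested on simulated data. Gene positions and promoter sequences came from RefSeq tables of GRCm38.p6. 10 RefSeq promoters matched genes of the window. Named peaks were those with the 8 largest log2 fold changes in size, the peak of highest mean CPM and the gene-end peak of each gene in the window. Outside it they were taken from the 10 peaks most like the lead peak, Pdzrn3 relatives and the member with the smallest p of each list. Peaks 1, 11, 23, 25, 26, 28, 29, 30, 42, 43 and 45, and Dvl3, Ror2, Rac1, Mitf, Rybp and Flt1, were named after their values were seen. A peak among those 10 and a marker gene are not reported here.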

Additional observations from a re-analysis of the deposited data

Results flagged for a closer look

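Of 32 groups of clones examined for a single value far from the rest, at named window peaks, sums over peaks and flanking levels, 2 held one, and chance flags about 1 in 20 groups. Both were the T cell low clone 6694c2, which had 3.709 CPM at peak 27, inside Pdzrn3, and 8.654 CPM at peak 39, upstream of it. Each was the highest CPM of the T cell low clones but rested on few reads. At peak 27 6694c2 had 6 reads and 6419c1 had 5, and at peak 39 6694c2 had 14 and 2699c4 had 12. At the lead peak 6694c2 was the lowest T cell low clone, with 2.472 CPM.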

How the results depend on the processing

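The number of peaks called over the whole table was 0 by edgeR, 47 by DESeq2, and 0 to 42 with 1 clone left out, the 42 being without 2838c3. The number of window peaks with all T cell high above all T cell low clones was 0, and 0 to 8 with 1 clone left out, the 8 being again without 2838c3. The share of all tested peaks that did so without 2838c3 was not computed, so nothing is read from the 8. Over the clones left out, the lead peak's log2 fold change was 2.28 to 2.89, the number of window peaks at least 2-fold higher 13 to 17, the window median 0.33 to 0.69 and the median correlation of the lead peak with the other Pdzrn3 peaks 0.76 to 0.86. The flanking difference of 0.271 was 0.208 to 0.367 with 1 clone left out, and by the exact permutation test p was 0.052 without 2838c3, 0.058 without 6555c3, 0.059 without 7160c2 and 0.052 without 6419c1. It was 0.270 with flanks of 2 Mb and 0.257 with 10 Mb. The lead peak's log2 fold change was 2.63 with DESeq2 size factors, 2.65 with no filter, 2.74 with clones summed by name number and 2.30 with the flanking offset. The Ppp4r2 promoter moved to -0.20 with that offset. Near-zero marker genes changed sign: Tcf7 was 0.05 without 6421c2, 0.01 without 2699c4 and 0.00 without 6499c3 (-0.22 to 0.05), and Cd68 was 0.01 without 6419c1 (-0.40 to 0.01). The cause was not tested. Low counts in the T cell low clones limit the precision of single peaks. No paired analysis was possible because the replicate numbers follow accession order only.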
